A study of Esox lucius with 13 samples.

Results

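Motile and sensory cilia proteins of the northern pike (Esox lucius) were followed through 13 tissues as Trinity transcripts, which are pieces of mRNA assembled from the reads. Members were the rows of the authors' annotated expression tables whose protein name matched a set of cilia terms, such as axonemal, ciliary, flagellar, kintoun or Hydrocephalus-inducing. The name matching gave 26 transcripts with 16 distinct names among the 1999 rows at hand of the Trinity table, out of 38696 transcripts in all. Each of the 26 was found in the deposited files by its fragment number and FPKM in all 13 libraries together. The table of MAKER2 gene models gave another 6 rows with 5 names, of which 2 names were shared, so that both tables together held 32 rows and 19 names. The 6 models (Bardet-Biedl syndrome 4 and 10 proteins, Radial spoke head protein 9 homolog, Dynein heavy chain 2 and a pair of Dynein heavy chain 9 models) are named without values, because 0 of 6 could be paired with a deposited transcript. Annotated rows that were not at hand were not used here.

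All 13 libraries came from 1 wild-type juvenile male pike, a wild-caught fish with no treatment, and each tissue had 1 library. The tissues were kidney, testis, eye, nose, brain, gill, gut, head kidney, heart, liver, muscle, stomach and spleen. A library held between 17240414 and 22300517 mapped fragments, with a median of 19038265. No tissue was replicated, so no p-value or SD between samples could be given, and the 95% intervals below are exact and cover counting error only. In whole tissue, fewer cells of a type and less RNA per cell cannot be told apart.

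A motile cilium or flagellum is built on an axoneme, a ring of microtubule doublets that slide past each other when dynein arms pull on them. The force comes from dynein heavy chains in outer and inner arms, which assembly factors such as kintoun fold in the cytoplasm before the arms are carried into the cilium, while a central apparatus helps to set the beat. In zebrafish, multiciliated cells line parts of the kidney tubules and the brain ventricles, sperm swim with a flagellum, and photoreceptors carry their light-sensing membranes on a modified non-motile cilium.

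Of the 26 transcripts, 24 encoded proteins of motile cilia. They were 10 outer arm and 9 inner arm heavy chain transcripts, 3 transcripts of the assembly factors, and 1 each of Hydrocephalus-inducing protein and Sperm flagellar protein 2, which belong to the central apparatus. The other two were TMEM237A, a transmembrane protein of the transition zone at the base of cilia, and Tetraspan membrane protein of hair cell stereocilia homolog. Stereocilia are actin-based and are not cilia, and this transcript was a member by its letters only. The members were mostly short pieces of long mRNAs, with a median length of 353 bases (205 to 4497) against 1174 bases for all transcripts with a fragment. They had a median of 14.5 fragments over all libraries (3 to 1388), against 336.5 for all transcripts. Several rows with 1 name can be pieces of 1 gene, and rows are therefore not independent.

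Kidney held the highest FPKM of 16 of the 26 transcripts, against 3.93% of the 38393 transcripts with any fragment. The 16 carried 10 of the 16 names and were all of the motile group. Brain was highest for 5 members (27.2% of all transcripts), testis for 3 (15.9%) and eye for 2 (4.93%). All 24 motile members thus had their maximum in kidney, brain or testis, as did 47.1% of all transcripts. Members could come only from the rows at hand. Of those rows that matched 1 transcript, kidney was highest for 3.91%, brain for 32.8%, testis for 8.28% and eye for 7.45%. Brain was the next tissue for 13 of the 16 kidney maxima, and nose, stomach and testis for 1 each. Among members with at least 10 fragments, 15 of 19 were highest in kidney. That minimum was on fragments of all libraries, kidney included, so it can keep rows because they are high in kidney. The share of all transcripts at the same minimum was not computed. In TPM, a measure scaled to the same sum in every library, 14 of 26 were highest in kidney.

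**Figure D1:**
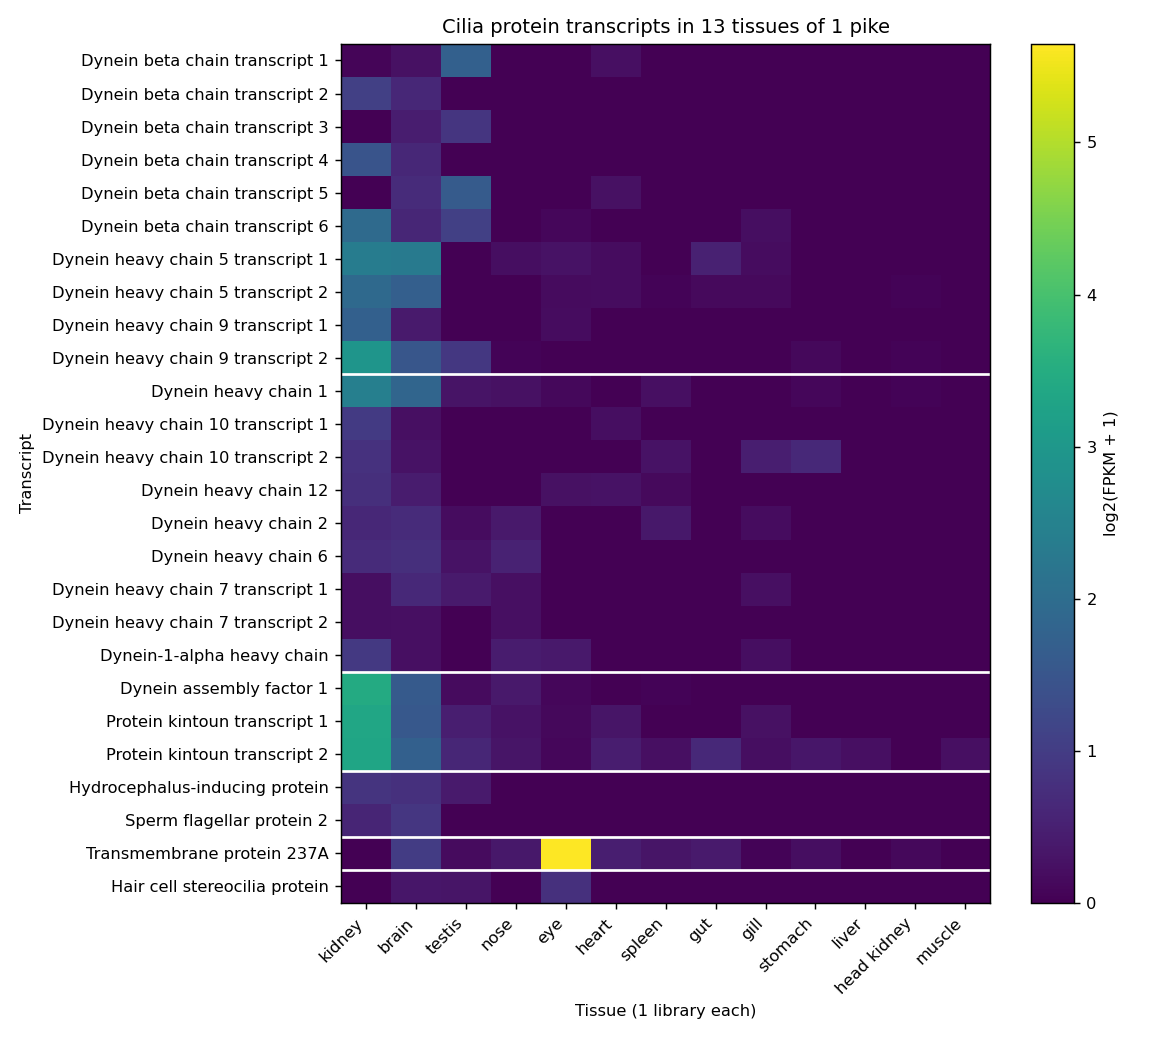
Expression of the 26 cilia protein transcripts (rows, ordered by role and separated by white lines) in the 13 tissue libraries (columns), as log2(FPKM + 1) on the colour scale. The 3 assembly factor transcripts reach 8.99 to 9.89 FPKM in kidney, 3 beta chain transcripts are highest in testis, and TMEM237A stands alone in eye with 49.1 FPKM.

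The study called a transcript specialized where it lay more than 3 SD above its mean over the tissues. By that rule, with n - 1 in the SD, 8 members were specialized in kidney (1.06% of all transcripts), 7 of them with at least 10 fragments there. In testis 3 members passed it (7.25%), in eye 1 (2.75%) and in brain 0 (14.1%). The 8 kidney members were Dynein assembly factor 1, both kintoun transcripts, both Dynein heavy chain 9 transcripts, Dynein beta chain transcripts 4 and 6, and Dynein heavy chain 10 transcript 1. Without the brain library 12 members passed the rule in kidney. On the log2(FPKM + 1) scale, 3 passed it.

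The fragments were concentrated as the maxima were. Of the 2470 fragments of the motile members, 1576 (63.8%) were in kidney, 548 (22.2%) in brain and 145 (5.87%) in testis, and the remaining 201 were spread over the other 10 libraries. Outside kidney, brain and testis no motile member exceeded 0.566 FPKM. Brain had fragments of all 24 motile members (86.9% of all transcripts), kidney of 22 (75.9%), testis of 13 (63.8%), nose of 11 (75.6%), head kidney of 3 (75.0%), liver of 2 (52.9%) and muscle of 1 (56.1%). The summed level fell in the order kidney, brain, testis, nose and then heart. On library totals, each step of that order had an interval above 1, the smallest being nose over heart at 1.69 (1.03 to 2.82). The levels of heart, eye, spleen, gut, gill and stomach could not be ordered, since every interval between neighbours held 1. Liver, head kidney and muscle came last with 6, 5 and 4 fragments. This order was not repeated under median-of-ratios scaling, taken over transcripts read in all 13 libraries. Its factors were 1.45 for nose, 0.968 for heart, 0.513 for stomach, 0.301 for liver and 0.305 for muscle. The order of the tissues below testis was thus shown for library totals only.

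No fragment in either liver or muscle was found for 24 of the 26 members, against 34.6% of all transcripts and 62.0% of the annotated rows. As the shares above show, these libraries also read fewer transcripts of any kind than kidney. The members were also read less, with a median of 14.5 fragments over all libraries against 336.5 for all transcripts. Neither these shares nor those of the libraries above were matched for that, so they do not measure a tissue pattern alone.

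The summed axonemal heavy chains, the motors of the arms, were at 3.05 FPKM in kidney (877 fragments) and 1.61 FPKM in brain (405 fragments). Kidney was 1.89 times brain (1.68 to 2.13). In testis they were at 0.426 FPKM (119 fragments), which was 0.140 times kidney (0.114 to 0.169) and 0.264 times brain (0.213 to 0.325). Nose had 27 heavy chain fragments, with kidney 29.1 times higher (19.9 to 44.4), and head kidney, mainly a blood-forming organ in teleosts, had 5, with kidney 167 times higher (71.2 to 515). Muscle had 0 heavy chain fragments, for which the exact interval allows up to 0.0147 FPKM.

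**Figure D2:**
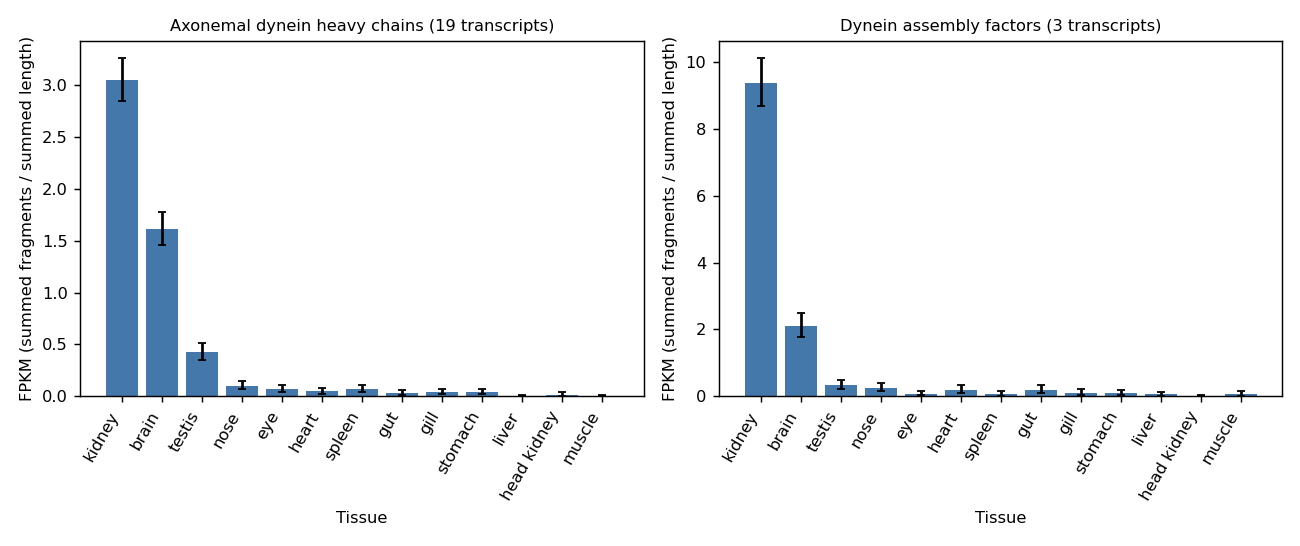
Level of the 19 axonemal dynein heavy chain transcripts (left) and the 3 dynein assembly factor transcripts (right) in each tissue, as FPKM of summed fragments over summed length, with exact 95% Poisson intervals for counting error as bars. Kidney and brain stand above the other libraries in both panels, at 3.05 and 1.61 FPKM for the heavy chains and at 9.37 and 2.11 FPKM for the assembly factors.

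Of 7 transcripts found under nephron marker names, with 3 distinct names, 5 were highest in kidney (3.93% of all transcripts) and 1 each in eye and nose. Uromodulin, Cubilin, Nephrin and Podocin gave no transcript among the rows at hand. Together the 7 had 19082 fragments in kidney and 25 in head kidney. Most of these were of Solute carrier family 12 member 3, the salt cotransporter of the distal tubule, with 17598 fragments in kidney and 22 in head kidney. Its name came through a paired MAKER2 model, and the pair was lost at a tolerance of 5%. Solute carrier family 2 member 9 transcript 3, with 1413 fragments in kidney, was also named through a paired model. That pair was not checked at 5%, so most of the kidney sum rests on names from paired models. The only transcript found under an olfactory name was highest in gut and had 0 fragments in nose, so the nose label could not be checked against its own cell type. In nose, where zebrafish have multiciliated cells, the motile members had 44 fragments, and they had 20 in gill and 23 in gut.

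The outer arm transcripts had 449 fragments in kidney and 186 in brain, a ratio of 2.11 (1.77 to 2.51). The inner arm transcripts had 428 fragments in kidney and 219 in brain, a ratio of 1.71 (1.45 to 2.02). Dynein heavy chain 1 alone gave 396 of those in kidney and 202 of those in brain, so the inner arm ratio is mostly of that transcript. The outer arm ratio was 1.24 times the inner arm ratio, with an interval that held 1 (0.969 to 1.58). In nose, 3 fragments were of outer arm and 24 of inner arm chains, and in spleen 1 and 18. Of these inner arm fragments, Dynein heavy chain 1 gave 16 in nose and 14 in spleen.

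Dynein heavy chain 9, a beta-type motor of the outer arm, was represented by a pair of transcripts. Transcript 2 had 6.75 FPKM in kidney and 1.83 FPKM in brain, a ratio of 3.68 (2.69 to 5.12). Transcript 1 had 2.34 FPKM in kidney and 0.324 FPKM in brain, a ratio of 7.20 (2.56 to 28). The kidney over brain ratios of the pair did not differ beyond counting error, transcript 1 over transcript 2 being 1.95 (0.650 to 7.93). Testis gave 27 fragments of transcript 2, 0.132 times its kidney rate (0.085 to 0.197), and 0 of transcript 1. For testis over kidney, the ratio of transcript 2 over that of transcript 1 had an exact lower limit of 1.003. That limit is too near 1 to separate the pair. The gene table of RefSeq for pike lists 2 genes under the symbols dnah9 and dnah9l, and the transcripts could not be assigned to them. Elsewhere the pair had between 0 and 3 fragments in a library.

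Dynein heavy chain 5, the gamma-type motor of the outer arm that is often mutated in human ciliary dyskinesia, was at nearly the same level in kidney and brain. Transcript 1 had 4.21 FPKM in kidney and 3.94 FPKM in brain, a ratio of 1.07 (0.720 to 1.59). Transcript 2 had 2.79 FPKM in kidney and 2.29 FPKM in brain, a ratio of 1.22 (0.872 to 1.71). Summed, the ratio was 1.15 (0.896 to 1.49), so a kidney level up to 1.49 times that of brain remained within counting error. Testis had 0 fragments of both transcripts against 148 in kidney, which allows at most 0.026 times the kidney rate. The gene table of RefSeq for pike lists 2 genes named dnah5 or dnah5l, and the transcripts could not be assigned to them. Gut had 9 fragments of the pair, eye 7, heart 6 and gill 5.

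Within the outer arm, then, the transcripts named heavy chain 9 and heavy chain 5 differed in their kidney preference. The kidney over brain ratio of Dynein heavy chain 9 was 3.41 times that of Dynein heavy chain 5 (2.29 to 5.12). They differed in testis too. Of heavy chain 9, 27 fragments were in testis and 244 in kidney, and of heavy chain 5, 0 were in testis and 148 in kidney, which put the testis over kidney ratio of heavy chain 9 at no less than 4.05 times that of heavy chain 5.

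The 6 transcripts named Dynein beta chain, ciliary, after sea urchin proteins of the same outer arm class, divided between testis and kidney. Transcript 1 had 2.32 FPKM in testis (39 fragments) and 0.058 FPKM in kidney (1 fragment), a ratio of 40.2 (6.80 to 1627). Brain had 3 fragments of it and heart 3. Transcript 5 had 2.08 FPKM in testis (11 fragments) and 0 fragments in kidney, with 3 in brain and 1 in heart, and the exact interval of its testis over kidney ratio began at 2.59. Transcript 3, with fewer than 10 fragments, was highest in testis as well.

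The remaining beta chain transcripts were highest in kidney. Transcript 6 had 1.09 FPKM in testis (14 fragments) and 2.86 FPKM in kidney (38 fragments), and testis was 0.380 times kidney (0.190 to 0.717). Its kidney level was 5.53 times that of brain (2.32 to 16.0). Transcript 4 had 11 fragments in kidney, 3 in brain and 0 in any other library, and its kidney over brain ratio was 3.20 (0.845 to 17.9). Transcript 2 had 7 fragments in kidney, 3 in brain and 0 elsewhere, a ratio of 2.04 (0.465 to 12.2). These short rows showed which tissues they were read in, but not a difference between kidney and brain. Summed over the 6 rows, the name had 69 fragments in testis and 57 in kidney, a ratio of 1.25 (0.865 to 1.80), so the sum hid the opposite order of its rows.

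**Figure D3:**
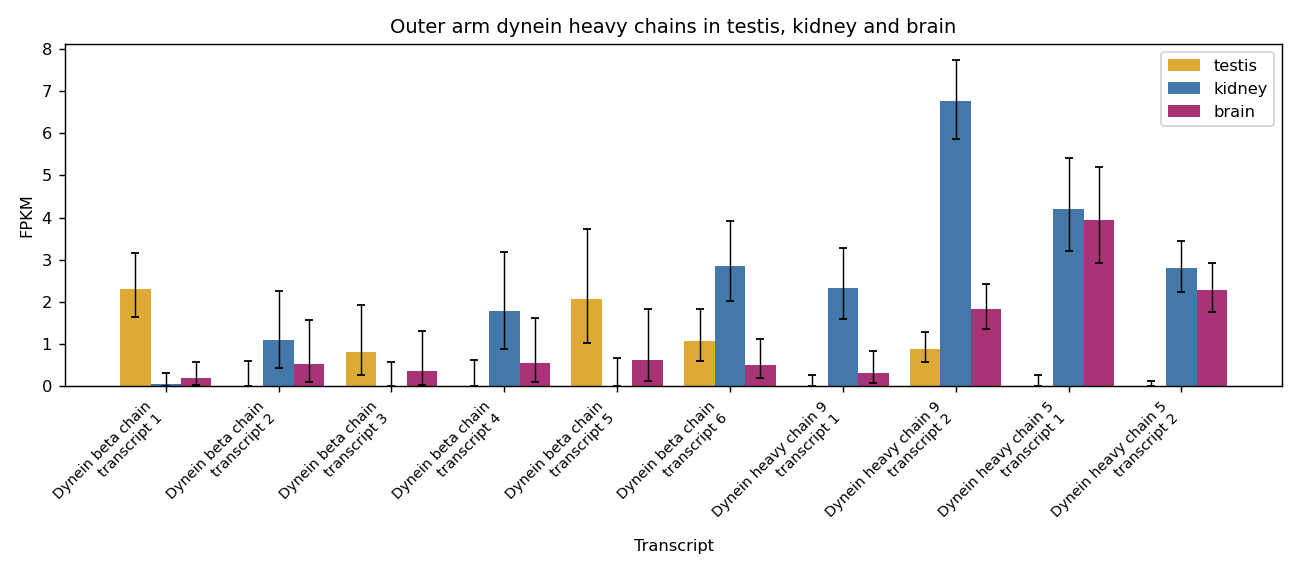
FPKM of the 10 outer arm heavy chain transcripts in testis, kidney and brain, with exact 95% Poisson intervals for counting error as bars. Beta chain transcripts 1, 3 and 5 are highest in testis, while both Dynein heavy chain 5 transcripts have 0 fragments in testis and 4.21 and 2.79 FPKM in kidney.

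Over all heavy chains the testis over kidney ratio depended on which rows were kept. It was 0.140 with all 19 transcripts and 0.0779 (0.0589 to 0.101) with the 5 that had at least 50 fragments. Those 5 were all highest in kidney. The minimum left out beta chain transcript 1, with 39 of its 46 fragments in testis, and transcript 5, with 11 of 15. The change is therefore not a measure of depth alone. Of 12 members with at least 10 fragments in testis and kidney together, 2 were at least 2 times higher in testis (35.0% of all transcripts), and both were beta chain rows. Of the germ cell markers looked up, 4 of 4 were highest in testis (15.9% of all transcripts). This count is a description, since the lists were chosen with earlier results of these data known. The markers had 2042 fragments in testis and 162 in kidney, a ratio of 13 (11.1 to 15.3). Protein GAMETE EXPRESSED 1 alone gave 1928 of those in testis, and the other markers gave 16 to 52 each, so the ratio is mostly of that transcript. The motile members ran the other way, at 145 fragments in testis and 1576 in kidney, a ratio of 0.0948 (0.0794 to 0.112). Of the germ cell markers in kidney, Protein GAMETE EXPRESSED 1 gave 150 fragments and Testis-expressed sequence 12 protein 0. No source used here states how mature the testis of this juvenile was.

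Dynein heavy chain 1, a motor of an inner arm, was the longest member at 4497 bases and had the most fragments of the motile group, 666. It had 4.46 FPKM in kidney (4.03 to 4.92) and 2.61 FPKM in brain (2.26 to 2.99), a ratio of 1.71 (1.44 to 2.04). Testis had 0.220 FPKM, 0.0494 times kidney (0.0294 to 0.0782). Nose had 0.201 FPKM, spleen 0.171, eye 0.088 and stomach 0.067, head kidney, heart and liver had 3, 1 and 1 fragments, and gill, gut and muscle had 0. Its kidney over brain ratio stood between those of heavy chains 5 and 9, 1.48 times that of Dynein heavy chain 5 (1.09 to 2.02), and that of Dynein heavy chain 9 was 2.30 times its own (1.62 to 3.30).

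The other inner arm rows were short and thinly read. Dynein heavy chain 12 had 7 fragments in kidney, 3 in brain, 2 each in eye and heart and 1 in spleen. Dynein heavy chain 10 transcript 2 had 4 fragments in kidney, 3 in stomach, 2 in gill and 1 each in brain and spleen. Dynein heavy chain 2 had 4 fragments in kidney and 4 in brain, with 2 each in nose and spleen and 1 each in gill and testis. For these rows kidney and brain could not be ordered at this depth. Dynein-1-alpha heavy chain, named after a protein of the green alga Chlamydomonas that builds the I1 inner arm, had 6 fragments in kidney, 1 in brain, 2 each in eye and nose and 1 in gill.

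The assembly factors, which act in the cytoplasm before dynein arms reach the cilium, had the highest kidney FPKM of the members. Dynein assembly factor 1 had 9.89 FPKM in kidney (8.72 to 11.2) and 2.05 FPKM in brain (1.51 to 2.72), a ratio of 4.83 (3.53 to 6.74). It had 0.297 FPKM in nose, 0.118 in testis, 0.075 in eye and 0.041 in spleen, and 0 fragments in the other 7 libraries. Against the 0 fragments of head kidney, the exact interval of the kidney ratio began at 66.5. Testis had 0.0119 times the kidney rate (0.00244 to 0.0351).

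Protein kintoun, a chaperone-linked factor that helps to fold the heavy chains, had a pair of transcripts. Transcript 1 had 9.20 FPKM in kidney and 1.92 FPKM in brain, a ratio of 4.80 (3.35 to 7.05). Transcript 2 had 8.99 FPKM in kidney and 2.33 FPKM in brain, a ratio of 3.85 (2.85 to 5.29). The pair did not differ in this ratio beyond counting error, at 1.25 (0.765 to 2.04), and the gene table of RefSeq for pike lists 1 gene of that function, dnaaf2. Transcript 2 was also the most widespread motile member. It was read in 12 libraries, with 0.563 FPKM in gut, 0.514 in testis, 0.359 in heart, 0.269 in stomach, 0.257 in nose and between 0.075 and 0.176 in eye, gill, liver, muscle and spleen, while transcript 1 was read in 7.

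Summed, the 3 assembly factor transcripts had 692 fragments in kidney and 136 in brain, a ratio of 4.44 (3.69 to 5.38), and 0 in head kidney. The kidney over brain ratio of Dynein assembly factor 1 was 4.18 times that of Dynein heavy chain 5 (2.77 to 6.36), and that of kintoun was 3.67 times it (2.59 to 5.21). Against Dynein heavy chain 9, Dynein assembly factor 1 gave 1.22 (0.780 to 1.93), so these 2 could not be separated by their tissue ratio. Dynein assembly factor 1 and kintoun gave 1.14 (0.764 to 1.72).

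**Figure D4:**
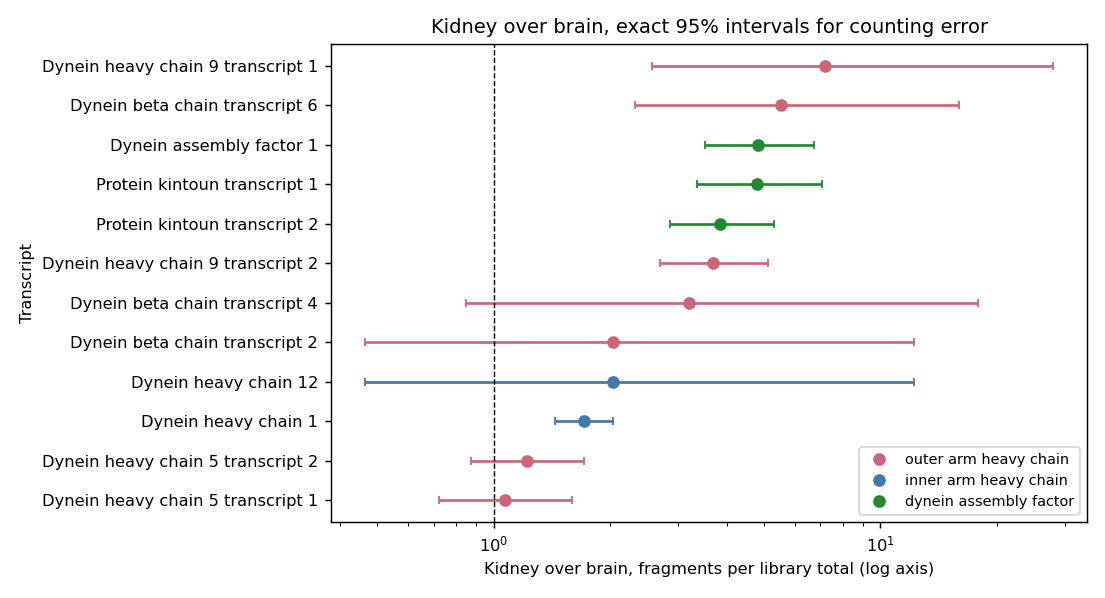
Kidney over brain ratio of the 12 motile members with at least 10 fragments in these libraries together, on a log axis, with exact 95% intervals for counting error. Both Dynein heavy chain 5 transcripts have intervals across the dashed line of equal levels, at 1.07 and 1.22, while the 3 assembly factor transcripts lie between 3.85 and 4.83.

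Over the members with at least 10 fragments in kidney and brain together, 9 of 13 were at least 2 times higher in kidney (22.4% of all transcripts that passed this minimum), all of them among the 12 of the motile group. Of these 12, 7 had an interval above 1 and 0 had one below 1. The same count was not made over all transcripts, so it describes these members only. With at least 50 fragments, 4 of 7 reached 2 times, and the median ratio of these 7 was 3.68 (lowest 1.07, highest 4.83), against a median of 0.748 over 20444 transcripts. The 3 neuron markers were near 0 in kidney, with 4 fragments in kidney and 1922 in brain.

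Hydrocephalus-inducing protein, whose loss in mice causes fluid to collect in the brain ventricles, had 0.791 FPKM in kidney (5 fragments), 0.725 FPKM in brain (4 fragments) and 2 fragments in testis, and 0 elsewhere. Its kidney over brain ratio was 1.09 (0.235 to 5.50), so kidney and brain could not be ordered at this depth. The 7 members with fewer than 10 fragments in all had 3 to 9 fragments and maxima of 0.180 to 0.940 FPKM. They were highest in brain in 4 cases and in kidney, testis and eye in 1 each. The 4 in brain were Dynein heavy chain 6, both Dynein heavy chain 7 transcripts and Sperm flagellar protein 2.

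TMEM237A was the only full-length member and differed from all motile members in its tissue. It had 49.1 FPKM in eye (46.5 to 51.8, 1324 fragments) and 0.996 FPKM in brain (0.632 to 1.5, 23 fragments). Eye was 49.3 times brain (32.7 to 78.1), and the score of 3.328 SD in eye equalled, when rounded, the highest value that 13 tissues allow. Heart had 0.392 FPKM, gut 0.317, nose 0.296, spleen 0.247, stomach 0.151, testis 0.117, head kidney 0.080 and gill 0.039. Kidney, liver and muscle had 0 fragments. The 3 retina markers, Opsin-5, Melanopsin-like and the photoreceptor protein C2orf71, were also highest in eye (4.93% of all transcripts). They had 2126 fragments there and 0 in brain. Rhodopsin was looked up too and gave no transcript among the rows at hand. The stereocilia protein had 5 fragments in all, 3 of them in eye.

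Across the 13 tissues the well-read motile members had much the same profile. For the 7 with at least 100 fragments, the Pearson correlation of log2(FPKM + 1) with the mean of the others was 0.938 to 0.985, with a median of 0.979. The points are libraries of 1 fish with shared normalization, and the members shared high values in kidney and brain. The minimum of 100 counted the kidney fragments too, and all 7 were highest in kidney. Their likeness is therefore partly set by how they were chosen and is a description. Over all 24 motile members the median was 0.909, and the lowest values, 0.054, 0.136 and 0.182, belonged to the beta chain transcripts that were highest in testis. A correlation of at least 0.9 was found for 8 of 10 motile members with at least 30 fragments, against 0.671% of 29973 transcripts, whose median was 0.212. As 7 of these members made up the profile, their share is a description.

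Outside the members, 193 transcripts reached 0.9. The profile itself was highest in kidney and next in brain, so where they were highest follows largely from that cut. Of the 193, 159 were highest in kidney, 34 in brain and 0 in testis. The 8 named ones with the closest profile were protein KIAA1257 (0.995), protein C17orf105 (0.990), protein C20orf26 (0.981), Armadillo repeat-containing protein 4 (0.969), UBX domain-containing protein 10 (0.961), GDNF family receptor alpha-1 (0.957), Calcyphosin-like protein (0.948) and Meiosis expressed gene 1 protein homolog (0.939). Calcyphosin-like protein, a calcium-binding protein, was the most abundant at 58.5 FPKM in kidney and 9.02 FPKM in brain. Meiosis expressed gene 1 protein homolog had 3.84 FPKM in kidney and 4.34 FPKM in brain, a ratio of 0.884 (0.636 to 1.23).

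A list of 16 further names of motile cilia proteins, outside the cilia terms used to choose members, gave 16 transcripts with 11 names, and 5 names had no transcript. Kidney was the highest tissue of 12 (3.93% of all transcripts), brain of 2 (27.2%), testis of 1 (15.9%) and liver of 1. These counts are a description, since the list was drawn up with the values in view and several rows share 1 name. Of its transcripts, 4 are also among the named ones with the closest profile above. Together the 16 transcripts had 677 fragments in kidney, 275 in brain and 188 in testis. Tetratricopeptide repeat protein 40 transcripts 2, 3 and 4, all highest in kidney, were named through paired MAKER2 models. Those pairs were not checked at a tolerance of 5%. Armadillo repeat-containing protein 4, which docks outer arms, had 6.22 FPKM in kidney and 1.06 FPKM in brain, a ratio of 5.89 (3.20 to 11.9). IQ and AAA domain-containing protein 1, of the complex that links neighbouring doublets, was the one highest in testis, with 3.34 FPKM in testis and 2.27 FPKM in kidney. The liver maximum, of Coiled-coil domain-containing protein 37, rested on 5 fragments in all libraries.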

How the data were processed

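RNA from 13 tissues of 1 fish was sequenced on an Illumina HiSeq, trimmed with Trimmomatic and assembled with Trinity by the authors, who kept 1 transcript per locus and named it by its best protein match. The authors deposited for each library a raw fragment count and an FPKM value per transcript, mapped back to this reference. The deposited FPKM is relative to fragments mapped per library and was used as it stands. No source used here names the mapping program. Because FPKM is a share of each library, it moves with the abundance of other transcripts.

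Names came from the authors' tables, of which 1999 rows each were at hand. Of the Trinity rows, 1920 matched exactly 1 transcript. MAKER2 models were paired where the summed difference of 13 fragment numbers was at most 10% and lengths lay within 30%, which paired 296. The members, lists and alternatives were chosen with earlier results of these data known. Every member with at least 10 fragments was named, the 8 most similar transcripts with at least 30 fragments, and list members by count with examples chosen after their values were seen. Members with fewer fragments were named without their own values, except for the stereocilia protein.

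Ratios are of fragments per library total, with Clopper-Pearson 95% intervals, or of 2 such ratios with conditional intervals. FPKM intervals are Poisson. They cover counting error only, since each tissue had 1 library of 1 fish. No molecular identifiers were used, so copies of 1 fragment could not be told apart, and the intervals do not cover that. For 0 fragments the limit of the exact interval was given. Calculations were tested on simulated counts of better-read transcripts only, which does not cover rows with few fragments. The calculations used scipy 1.17.1, numpy 2.4.6 and pandas 2.3.3 in Python 3.11.15, with matplotlib 3.10.9 for figures. RefSeq genes of fEsoLuc1.pri served for names only.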

Additional observations from a re-analysis of the deposited data

How the results depend on the processing

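No paired analysis was possible because each tissue had 1 library and no result came from a test. Of 50 alternative values, 37 stayed close to those reported and 13 moved. A reversal was defined only for the heavy chain ratios, and none of those reversed. Requiring at least 50 fragments left 9 members, 8 highest in kidney, 1 in eye and 0 each in brain and testis. This minimum, like that of 10, counted the kidney fragments too, so it can keep rows because they are high in kidney. With at least 10 fragments brain kept 1 and eye 1. Counted by distinct name, with fragments summed over its rows, kidney had 9 and testis 1. Without the stereocilia protein eye had 1. The count over 3 SD in kidney was 3 on the log2(FPKM + 1) scale and 7 to 12 when each other tissue was left out. The testis over kidney ratio of the heavy chains was 0.0779 with at least 50 fragments, and 4 members were at least 2 times higher in kidney than in brain at that minimum. At a tolerance of 20%, 2 MAKER2 members could be paired instead of 0. TPM and thinning were applied to the counts of highest tissues only, and moved none of them by more than the limit of 1.5 times. Median-of-ratios scaling was applied only to the summed heavy chain ratios, kidney over brain and testis over kidney. It moved neither out of its interval. The order of tissues and the other ratios were not rescaled. Depth limits the rows with few fragments, for which kidney and brain could not be ordered.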

Other observations

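Proteins of primary and sensory cilia that the cilia terms did not take were looked up as 10 names, of which 7 were found. Of these 7, 0 were highest in kidney (3.93% of all transcripts), 3 in testis (15.9%), 2 in brain (27.2%) and 2 in eye (4.93%), which is too few to set against those shares. Protein fantom, a transition zone protein, had 16.6 FPKM in testis and 2.92 FPKM in kidney, and Centrosome and spindle pole-associated protein 1 had 6.84 FPKM in testis and 1.11 FPKM in kidney. Tetratricopeptide repeat protein 21B, a subunit of the retrograde transport complex, had 3.18 FPKM in kidney and 6.64 FPKM in brain, a ratio of 0.480 (0.416 to 0.552). Protein C2orf71 had 60.1 FPKM in eye and 0 fragments in kidney, brain and testis. ADP-ribosylation factor-like protein 13B was highest in eye at 15.4 FPKM, but it and Protein fantom were named through a paired MAKER2 model, and both pairs were lost at a tolerance of 5%. Tetratricopeptide repeat protein 21B was also named through a paired MAKER2 model, and its pair was kept at 5%.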
